A study of Schizosaccharomyces pombe
Saccharomyces cerevisiae with 8 samples.

Results

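Newly synthesized RNA was compared between budding yeast (Saccharomyces cerevisiae) given auxin and the same strain given DMSO, the solvent of the auxin, in 4 of the 8 libraries of the series. All 4 libraries came from 1 strain, GZY380, of mating type alpha (MATalpha). It carries the marker alleles ade2Δ::hisG, his3Δ200, leu2Δ0, lys2Δ0, met15Δ0, trp1Δ63 and ura3Δ0. The rice auxin receptor OsTIR1 is expressed from the GPD1 promoter (his3::pGPD1-OsTIR1-HIS3), and both Mediator genes carry degron tags, as MED14-3HA-IAA7-URA3 and as MED17-3V5-IAA7-kanMX6, so the DMSO cells hold the same tags and receptor. Cultures in YPD were given 500 µM 3-indole acetic acid or DMSO for 30 min, then 5 mM 4-thiouracil for 6 min, which is built into RNA made in that time and allows it to be purified. The cells had been mixed with fission yeast (Schizosaccharomyces pombe) at 1 part to 3 parts before extraction. Each group (DMSO, auxin) held 2 biological replicates, labelled 1 and 2. A strain without degron tags treated with auxin was not analysed here, so effects of auxin itself and of the loss of Med14 and Med17 cannot be told apart in these 4 libraries.

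Mediator is the large complex that passes signals from DNA-bound activators to RNA polymerase II at promoters. Med14 is the backbone that joins its head, middle and tail modules, and Med17 is a central subunit of the head, which contacts the polymerase. In yeast most promoters of protein-coding genes are thought to use Mediator, and the comparison addresses how far new transcription depends on these architectural subunits.

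The deposited table of newly synthesized RNA held 2822 features, of which the last was broken off and dropped, leaving 2821. The total RNA table of the same series held 6518. The listed features are those with the lowest of the authors' p-values, none above 1.64e-31, and every one of the authors' deposited log2 fold changes there is at or below -2.20, so the table was bound to contain falls. Over the listed features the DMSO libraries held 13124425 and 15743081 counts and the auxin libraries 4817445 and 5881610, and a median listed feature had 2552 counts in DMSO and 905 in auxin. By the deposited annotation 2810 features were protein-coding, 8 were small nucleolar RNAs, 2 were other noncoding RNAs and 1 was a pseudogene. A gene symbol was given for 1156 (41.0%), and the others are called here by their systematic names. Of the listed features 254 overlap another feature, and for 595 the deposited description names a paralog. Whether the counting used strand or shared reads is not given in the sources used here, so values of such features are uncertain. Markers of mating type matched the label in total RNA: STE3, the receptor of alpha cells, stood at 2856 and 3445 normalized counts per kb in DMSO and BAR1, a protease of a cells, at 11.4 and 14.8.

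All 2821 listed features were lower after auxin with the authors' scaling (100% of those tested, edgeR quasi-likelihood test at a Benjamini-Hochberg adjusted p below 0.05), and 0 were higher, as the selection had fixed. Without adjustment of the edgeR p the count of higher features at 0.05 was also 0, as it was with DESeq2. Beyond the depth that the selection required, how far each one fell was left free. Expressed as the auxin mean over the DMSO mean, a feature at the 5th percentile kept 9.36% of its newly synthesized RNA, the median feature 14.4% and a feature at the 95th percentile 18.4%, a spread of 1.97-fold. The full range was 3.71% to 21.6%. Shares kept or left, here and below, compare RNA labelled in auxin with RNA labelled in DMSO, not RNA remaining in the cell. The median feature stood at 12.9% of the DMSO mean in auxin replicate 1 and at 15.9% in auxin replicate 2, and at 94.0% and 106% in the DMSO libraries. Both auxin libraries lay far below both DMSO libraries, which the selection had also fixed, so their separation is a description and no test of a fall. The difference was -2.80 on the log2 scale against a pooled SD of 0.179 (exact two-sided permutation p = 0.333, the smallest that 2 against 2 libraries allow). In these mixed cultures fewer budding yeast cells and less RNA per cell cannot be told apart, and what the authors' size factors were computed from is not given in the sources used here.

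Differences among features were therefore measured on a relative scale, on which the 4 libraries were scaled to each other over the listed features (TMM), so that a relative log2 fold change of 0 is the fall of the bulk. A feature is called deeper where it fell further than that bulk and shallower where it fell less, and every shallower feature still fell. Of the 2821 features 705 were deeper (25.0%) and 599 shallower (21.2%) at an edgeR adjusted p below 0.05. The deeper features kept a median of 10.9% of their newly synthesized RNA and the shallower ones 17.6%. The distribution was lopsided: 247 deeper features passed a relative change of 0.5 and 35 passed 1, against 14 and 0 of the shallower ones. The selection bounded the shallower side. No listed feature had a deposited log2 fold change above -2.20, against a median of -2.80 with the authors' scaling, which left no room for a relative change of 1. How much of the lopsidedness comes from the selection was not tested. The fold change of a feature in the replicates numbered 1 and in those numbered 2, which share no library, correlated across features (Pearson r = 0.84), and crossing the numbers gave 0.82. Features lie near 1 line in the plot of the auxin libraries against each other.

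Both counts lean on how replicate scale is treated. When the authors' size factors were kept and only the median fold change was set to 0, the difference in overall level between the replicates of a group stayed in each feature's spread, and edgeR called 111 features deeper and 0 shallower. At an unadjusted p below 0.05 that setting gave 312 deeper and 30 shallower. DESeq2 with its own size factors gave 549 and 500. Without DMSO replicate 1 edgeR called 469 deeper and 308 shallower, and without DMSO replicate 2 it called 444 and 241. All 10 of the deepest named genes below kept their call under the authors' factors, and 0 of the 10 shallowest did, with edgeR adjusted p-values from 0.149 to 0.344.

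**Figure D1:**
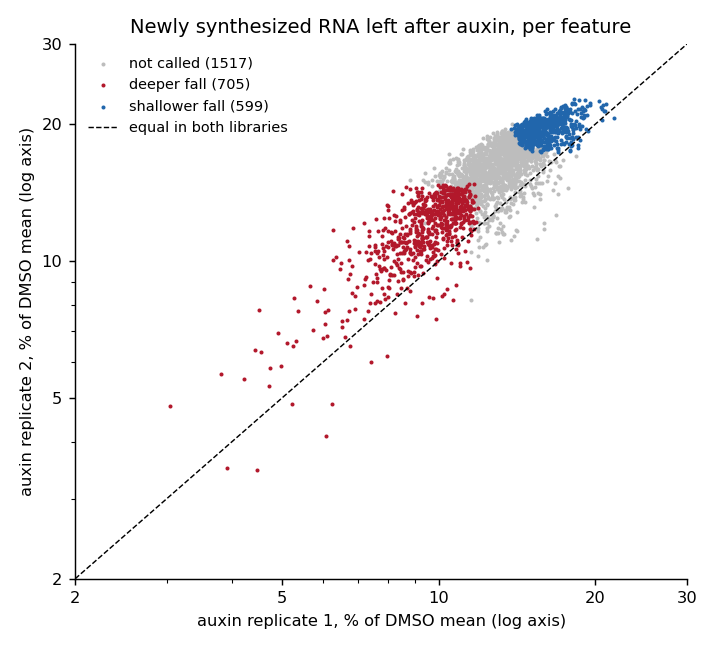
Newly synthesized RNA of each of the 2821 listed features in auxin replicate 1 (x axis) and auxin replicate 2 (y axis), as a percentage of its DMSO mean on log axes, with 1 point per feature coloured by its call on the relative scale (705 deeper, 599 shallower, 1517 not called) and a dashed line where both libraries are equal. Points form 1 narrow band that lies mostly above the line, around medians of 12.9% in replicate 1 and 15.9% in replicate 2, with a tail toward low values that both libraries share.

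The deepest falls among genes with a symbol were those of NDJ1, CWP2 and GAL4. NDJ1 (YOL104C, chromosome XV 116396 to 117454, sacCer3), which clusters telomeres in meiosis, stood at 1956 and 1985 normalized counts in DMSO and 93.1 and 105 in auxin. CWP2 (YKL096W-A, chromosome XI 259253 to 259531), a structural mannoprotein of the cell wall, stood at 880 and 1381 in DMSO and 53.5 and 65.8 in auxin. GAL4 (YPL248C, chromosome XVI 79711 to 82356), the activator of galactose genes, stood at 664 and 983 in DMSO and 36.5 and 52.4 in auxin. The auxin libraries were below the DMSO libraries in each, which the selection fixed, and the DMSO replicates of CWP2 and GAL4 differed more than those of NDJ1. They kept 5.02%, 5.28% and 5.40% of their RNA, with relative log2 fold changes of -1.53 (SE 0.103, edgeR adjusted p = 6.61e-05), -1.45 (SE 0.188, adjusted p = 0.000969) and -1.42 (SE 0.179, adjusted p = 0.000855). The next 7 by the same rule were VRP1, a verprolin of the actin cytoskeleton whose coding region overlaps another feature, NRT1, a nicotinamide riboside transporter, VID24, a regulator of the breakdown of gluconeogenic enzymes, MSS1, which modifies mitochondrial transfer RNAs, the wall proteins CIS3 and HSP150, and ARR3, an arsenite exporter. Their relative changes ran from -1.30 for VRP1 to -0.97 for ARR3.

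Features without a symbol reached further down, and those given here were picked after their values were seen. YHR143W (chromosome VIII 385510 to 386487), described as a secreted, glucanase-like protein with which a daughter cell parts from its mother, stood at 4575 and 5528 in DMSO and 153 and 243 in auxin. It kept 3.92% of its RNA, a relative change of -1.89 (SE 0.102, edgeR adjusted p = 4.79e-05). YKL071W (chromosome XI 305114 to 305884), of unknown function and described as induced by the mycotoxin patulin, stood at 21562 and 20249 in DMSO and 1092 and 1014 in auxin. It was thus both among the strongly made RNAs of the DMSO cells and among the deepest falls, at 5.04% left (relative change -1.51, edgeR adjusted p = 0.000225). YER138W-A (chromosome V 449474 to 449578), the shortest listed coding feature at 105 bases, had the deepest fall of all, from 233 and 313 to 10.7 and 9.59, or 3.71% left. Its reads may be shared with a noted paralog, and the raw counts in auxin were low.

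The 10 shallowest named genes lay within a narrow range, next to the edge that the selection set. No listed feature had a deposited log2 fold change above -2.20, so these need not be the least affected genes of the genome. IMD2 (YHR216W, chromosome VIII 554396 to 555967), an enzyme of guanine nucleotide synthesis, stood at 4833 and 4933 normalized counts in DMSO and 1011 and 1077 in auxin. RPS9A (YPL081W, chromosome XVI 404950 to 406044), a protein of the small ribosomal subunit, stood at 6696 and 7431 in DMSO and 1534 and 1456 in auxin. ADK1 (YDR226W, chromosome IV 916486 to 917154), the adenylate kinase, stood at 9244 and 10715 in DMSO and 2076 and 2137 in auxin. These 3 genes kept 21.4%, 21.2% and 21.1% of their RNA. Their relative changes were 0.57 (SE 0.0858, edgeR adjusted p = 0.00148), 0.57 (SE 0.110, adjusted p = 0.00407) and 0.56 (SE 0.0888, adjusted p = 0.00178). IMD2 and RPS9A have noted paralogs whose reads could not be told apart here. The others named by the rule were TMA19, a ribosome-associated protein, UBI4, the polyubiquitin gene, RHO5, a small GTPase, SNF4, a subunit of the Snf1 kinase, NFS1, a cysteine desulfurase of iron-sulfur cluster assembly, MET5, a sulfite reductase subunit, and PUP3, a proteasome subunit, with relative changes from 0.56 down to 0.52. The highest value of any feature was that of YKR048C, described as a histone chaperone, at 21.6% left (0.59, edgeR adjusted p = 0.00115), a feature that overlaps another.

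**Figure D2:**
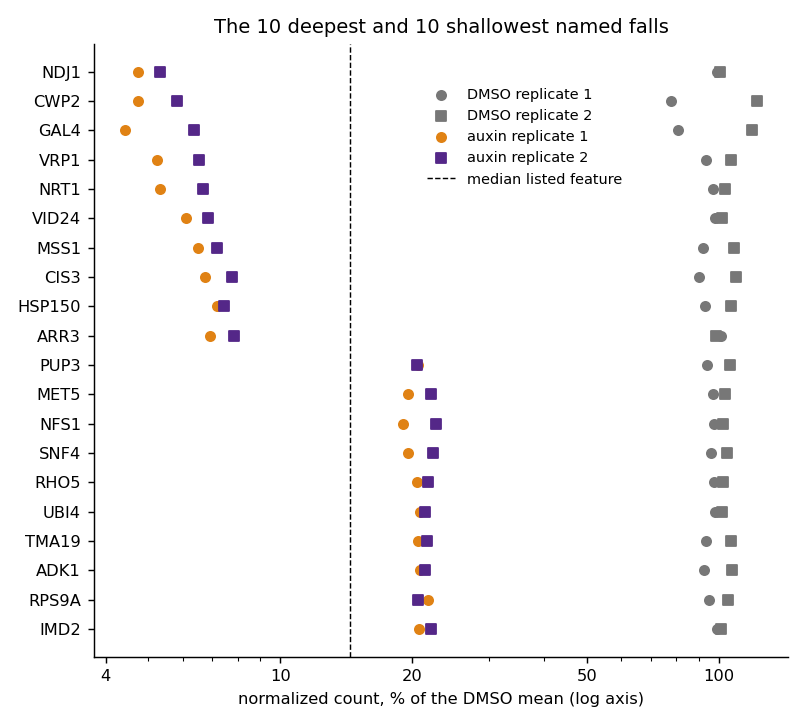
Normalized counts of the 10 deepest and 10 shallowest named genes in each of the 4 libraries, as a percentage of the gene's DMSO mean on a log axis, with the dashed line at the median listed feature (14.4%). The auxin points of the upper 10 genes lie between 4.43% and 7.85% and those of the lower 10 between 19.1% and 22.6%, on opposite sides of the dashed line, while DMSO replicates spread most for CWP2 and GAL4.

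SRB4 (YER022W), the gene of the tagged Med17 itself, stood at 8689 and 10173 normalized counts in DMSO and 1390 and 1828 in auxin, 17.1% left. On the relative scale it was shallower (0.23, SE 0.0629, edgeR adjusted p = 0.0157). RGR1, the gene of Med14, was not among the listed features. Among 7 listed genes of Mediator subunits 2 were shallower and 0 deeper, with a median of 0.13, beside 21.2% of all features shallower. The RNA of a tagged gene does not show whether its protein was degraded.

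The most strongly transcribed features of the DMSO cells did not share 1 response. Ranked by normalized count per kb of coding length in newly synthesized RNA, the 5 highest were OYE2, an NADPH oxidoreductase, at 155773 and 177226, HSP82, the heat-inducible Hsp90 chaperone, at 135148 and 143022, YOL151W, described as a stress-induced methylglyoxal reductase, at 125035 and 139811, HSC82, the constitutive Hsp90, at 112984 and 120936, and YNL134C, described as an aldehyde reductase, at 103549 and 117191. The replicates of each lay close together. In auxin the chaperones kept 20.1% (HSC82) and 16.6% (HSP82) of their RNA, and the reductases 11.9% (OYE2), 11.8% (YOL151W) and 7.93% (YNL134C). On the relative scale HSC82 (0.47, edgeR adjusted p = 0.000446) and HSP82 (0.19, adjusted p = 0.0185) were shallower, and YNL134C (-0.86, adjusted p = 6.61e-05), YOL151W (-0.29, adjusted p = 0.0129) and OYE2 (-0.28, adjusted p = 0.00347) deeper. HSP82 and HSC82 are near-identical copies whose reads may be shared, and YOL151W overlaps another feature. ZWF1, which makes NADPH in the pentose phosphate pathway, and ECM4, a glutathione transferase, both chosen after their values were seen, fell about as far as YNL134C, from 17056 and 18033 to 1295 and 1419 (7.73% left) and from 8185 and 9008 to 649 and 694 (7.81% left). Among all 68 features described with oxidative stress or glutathione 16 were deeper and 13 shallower, shares near those of the whole table.

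Features of high level fell less far, as a trend over the whole table. Features were put into 5 equal classes by their normalized count per kb in the DMSO libraries of total RNA, which are other libraries than those tested. From the lowest class to the highest the median share of newly synthesized RNA left was 12.9%, 14.1%, 14.6%, 15.1% and 15.5%. The share of a class called deeper fell along with it from 39.7% to 16.7%, and the share called shallower rose from 6.23% to 36.1%. Between the highest and the lowest class the median relative change differed by 0.27, with 0.28 in auxin replicate 1 and 0.24 in auxin replicate 2 (pooled SD 0.0233), against 0.0127 and -0.0127 in the DMSO libraries. Both auxin libraries thus showed the trend at similar size, with an exact two-sided permutation p of 0.333, which is the floor of this design. Within classes of coding length the difference averaged 0.34.

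Selection by p-value bears on this trend directly. Of the protein-coding features tested in total RNA, 30.1% of the lowest level class were listed and 68.0% of the highest, and a feature of few counts reaches a low p only with a deep fall. The shallowest of the authors' deposited log2 fold changes was -2.32 in the lowest class and -2.20 in the highest. How much of the trend comes from the selection was not tested.

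Length mattered less, and the auxin libraries did not show the same relation to it. In 5 equal classes of coding length, from 105 to 750 bases up to 2139 to 9435 bases, the median relative changes were -0.05, -0.01, -0.01, 0.02 and 0.01. The longest class minus the shortest gave 0.06 in all, which was -0.06 in auxin replicate 1 and 0.15 in auxin replicate 2 (pooled SD 0.106, exact two-sided permutation p = 1). Within classes of level the difference was 0.16, with 0.08 and 0.25 in the auxin libraries. Long features are less abundant per kb in total RNA, with Spearman's rho of -0.37 between length and level across features. Of all protein-coding features tested in total RNA, 35.6% of the shortest class were listed, against 52.1% to 58.3% of the other classes. How far this selection shaped the relation to length was not tested. The 3 longest coding features differed among themselves. VPS13 (9435 bases), a lipid transfer protein, kept 19.7% of its RNA (relative change 0.45, edgeR adjusted p = 0.000602). IRA2 (9240 bases), a regulator of Ras, kept 15.2% and was not called (0.06, adjusted p = 0.414). YLR087C (8877 bases) kept 15.7% and was not called (0.11, adjusted p = 0.251). Next to YER138W-A the shortest coding features were YDR003W-A, deeper at 9.01% left (-0.68, edgeR adjusted p = 0.00153), and YCR024C-A, a regulator of the plasma membrane proton pump, not called at 11.8% left (-0.29, adjusted p = 0.0597).

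**Figure D3:**
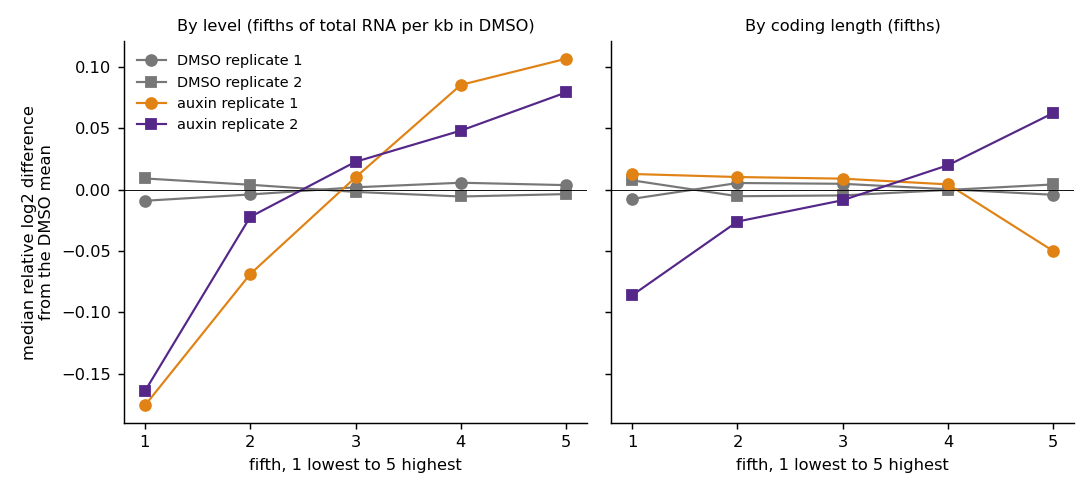
Median relative log2 difference from the DMSO mean in each of the 4 libraries, for 5 classes of total RNA level per kb in DMSO (left) and 5 classes of coding length (right), class 1 being the lowest or shortest. On the left both auxin lines climb from about -0.18 and -0.16 to 0.11 and 0.08, while on the right the line of auxin replicate 2 climbs from -0.09 to 0.06 and that of replicate 1 ends at -0.05.

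When level and length were crossed, the listed short features of low level fell furthest. The selection bears on these cells too, since 35.6% of the shortest class and 30.1% of the lowest level class were listed. How much of the pattern comes from it was not tested. The 38 features in the lowest class of both had a median relative change of -0.37, with 11.2% of their RNA left, 18 deeper and 1 shallower. The 50 features in the highest class of both had a median of 0.18, with 16.5% left, 9 deeper and 27 shallower. These counts stand beside 25.0% deeper and 21.2% shallower of all features. Short features of the highest level class (237 features) lay near the bulk at 0.02.

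**Figure D4:**
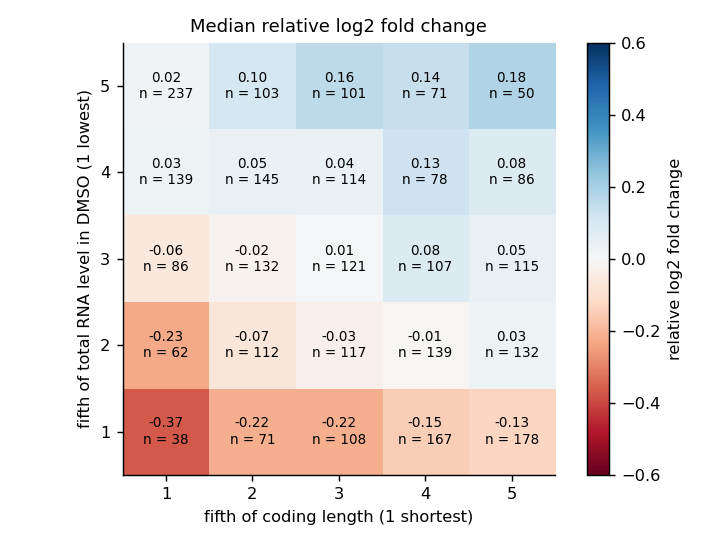
Median relative log2 fold change (colour and upper number) and number of features (n) in each of 25 cells made by crossing 5 classes of coding length (x axis) with 5 classes of total RNA level in DMSO (y axis), over 2809 protein-coding features. Values rise from -0.37 at the lower left to 0.18 at the upper right.

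Structural genes of the cell wall had the lowest median of the 413 annotation terms examined, which were read after the values were known. The yeast wall is made of glucans, chitin and mannoproteins, many of them held by GPI anchors, and many wall genes peak at set stages of the cell cycle. Of 10 listed structural constituents of the wall, by the deposited annotation, 8 were deeper, 0 shallower and 2 not called, with a median of 8.30% left. Of 21 listed GPI-anchored or otherwise anchored proteins 16 were deeper and 1 was shallower, with a median of 9.65% left. Both groups include CWP2, YLR110C, CCW14 and CWP1, so they are not separate sets. Wider groupings varied. The term fungal-type cell wall (47 features) had 30 deeper and 4 shallower, with a median relative change of -0.42. Fungal-type cell wall organization (62 features) had 25 and 9 (-0.11), and the 76 features described with the cell wall had 28 and 18 (-0.06). Median members of the structural group kept 7.99% in auxin replicate 1 and 8.41% in auxin replicate 2, so both libraries showed the group below their own medians of 12.9% and 15.9%. YLR110C, described as a mannoprotein of newly made wall, stood at 5594 and 7158 in DMSO and 415 and 471 in auxin, and CCW14, an inner-layer wall protein, at 2342 and 3062 in DMSO and 184 and 230 in auxin. These genes kept 6.95% and 7.66% of their RNA (relative changes -1.05 and -0.91, edgeR adjusted p = 0.000161 and 0.000399). PIR1, a wall protein of the same family as CIS3 and HSP150, was not called at 14.8% left (0.04, adjusted p = 0.692). The structural members had a median of 255 normalized counts per kb in total RNA, a level class in which 39.7% of all features were deeper.

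Genes that define the alpha mating type lay in the same range. STE3, the receptor for the pheromone a-factor, whose coding region overlaps another feature, stood at 17226 and 21314 in DMSO and 1408 and 1940 in auxin. MF(ALPHA)1, the main alpha-factor precursor, stood at 13436 and 17047 in DMSO and 1262 and 1507 in auxin. SAG1, the alpha-agglutinin that binds mating partners, stood at 5054 and 5981 in DMSO and 501 and 698 in auxin. All 3 were deeper than the bulk, with 8.69%, 9.08% and 10.9% left and relative changes of -0.74, -0.66 and -0.42 (edgeR adjusted p = 0.000371, 0.000541 and 0.00215). Features without a symbol that are described with alpha-cell products did not all go the same way. YGL089C, another alpha-factor gene, kept 5.86% (-1.30) and YLR040C, a blocker of a-factor whose coding region overlaps another feature, kept 4.85% (-1.57). Of 5 features whose description names alpha-factor or this mating type, 4 were deeper and 1 was shallower (0.27). Reads of MF(ALPHA)1 and YGL089C, which encode the same pheromone, may be shared. Of 5 listed genes of the mating response, 2 were deeper and 0 shallower. For each of these small groups the shares over all features were 25.0% deeper and 21.2% shallower.

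Histone genes did not fall alike. Of 10 listed features annotated with the nucleosome 5 were deeper, 1 was shallower and 4 were not called. The deeper ones include YOR358W (9.76% left), which is not a histone gene. Over all features 25.0% were deeper and 21.2% shallower. Yeast keeps its core histone genes as divergent pairs, transcribed away from a common intergenic region as cells enter S phase, and each histone is encoded more than once. YNL031C (histone H3) and YNL030W (histone H4), 676 bases apart on chromosome XIV, both fell deeply. YNL031C went from 8545 and 9845 to 713 and 873, and YNL030W from 9820 and 12042 to 983 and 1058, with 8.62% and 9.33% left (relative changes -0.75 and -0.62, edgeR adjusted p = 0.000162 and 0.00101). YBR009C on chromosome II, which encodes the same histone H4 protein, was shallower, from 5921 and 7222 to 1200 and 1309, or 19.1% left (0.41, adjusted p = 0.00375). By auxin library YBR009C kept 18.3% and 19.9% and YNL030W 8.99% and 9.68%, ranges that did not overlap.

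The pair for histones H2A and H2B differed within itself. HTA2 (histone H2A) went from 4786 and 5861 to 820 and 845, 15.6% left, and was not called (0.13, edgeR adjusted p = 0.276). Its neighbour YBL002W (histone H2B), 699 bases away on the other strand, went from 2435 and 3048 to 209 and 224, 7.90% left (-0.86, adjusted p = 0.000503). HTB1, the other H2B gene, was not called at 14.7% left (0.03). Linker histone YPL127C was deeper at 10.3% left (-0.49, adjusted p = 0.0035), and the centromeric histone CSE4 was not called at 14.7%, nor was the H2A variant HTZ1 at 14.8%. The histone list, matched by symbol, held 4 listed genes, 0 of them deeper and 0 shallower, beside 25.0% and 21.2% of all features. The copies are near identical in sequence, and how the counting split reads between them is not given in the sources used here. Histone genes without a symbol were picked after their values were seen.

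A pair of annotation terms, telomeric DNA binding and reciprocal meiotic recombination, held more deeper than shallower genes. Of 12 listed genes annotated with telomeric DNA binding 7 were deeper and 0 shallower, with a median relative change of -0.23. YKU70, a subunit of the Ku complex that protects chromosome ends, stood at 2883 and 3477 in DMSO and 213 and 291 in auxin, 7.92% left (-0.87, edgeR adjusted p = 0.000249). YKU80, the other Ku subunit, was less deep at 12.2% left (-0.26, adjusted p = 0.0216), and RAP1, which binds telomeres and ribosomal protein promoters, was not called at 16.3% (0.17, adjusted p = 0.0558). Of 21 listed genes of reciprocal meiotic recombination 12 were deeper and 1 shallower, with a median of -0.21. RFA2, a subunit of the single-stranded DNA binding protein RPA, kept 9.74% (-0.57, adjusted p = 0.00092). Both groups include NDJ1 and MRE11, so they are not separate sets. Related terms stood nearer the bulk: telomere maintenance (27 genes) had 8 deeper and 4 shallower, with a median of -0.01, and the meiotic cell cycle (33 genes) 7 and 4, with a median of -0.04, beside 25.0% and 21.2% of all features.

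Integral proteins of the peroxisomal membrane and the term ion transport also held more deeper than shallower genes, beside 25.0% and 21.2% of all features. Of 10 listed integral proteins of the peroxisomal membrane 7 were deeper and 0 shallower (median 12.3% left). YMR163C, described as a receptor for the inheritance of peroxisomes, stood at 2775 and 3451 in DMSO and 245 and 299.8 in auxin, 8.75% left (-0.72, edgeR adjusted p = 0.000501). PXA2, a fatty acid importer of the organelle, kept 12% (-0.27, adjusted p = 0.0268). The group's median level in total RNA was 455 per kb, in a class where 26.9% of features were deeper. Of 13 listed genes of ion transport 8 were deeper and 0 shallower, among them YVC1, a calcium channel of the vacuole, at 8.84% left (-0.72, adjusted p = 0.000446). POR1, the mitochondrial porin, was in the same group and was not called (0.03). The term peroxisomal membrane (14 genes) had 6 deeper and 3 shallower and cation transport (16 genes) 6 and 4.

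At the other end stood the machinery that moves proteins into the nucleus. Importins carry cargo through nuclear pores and Ran, a small GTPase, releases it. Across all features 21.2% were shallower and 25.0% deeper. Of 16 listed genes annotated with protein import into the nucleus 12 were shallower, 1 deeper and 3 not called, with a median of 18.0% left. By library the median was 16.0% in auxin replicate 1 and 19.8% in auxin replicate 2, above the table's medians in both. SRP1, importin alpha, stood at 13885 and 15249 in DMSO and 2504 and 3177 in auxin. KAP95, importin beta, stood at 34836 and 38294 in DMSO and 5664 and 6928 in auxin. PSE1, a karyopherin for other cargo, stood at 30110 and 34898 in DMSO and 5346 and 6786 in auxin. These genes kept 19.5%, 17.2% and 18.7% of their RNA (relative changes 0.43, 0.25 and 0.37, edgeR adjusted p = 0.00107, 0.00569 and 0.00133). KAP95 overlaps another feature.

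Pore proteins and Ran regulators were mixed in with them. NUP49 and NUP100, pore proteins that bind importins, were shallower at 18.3% and 18.2% left, as was YRB1, which helps Ran hydrolyse GTP, at 18.5% (0.36, edgeR adjusted p = 0.00253). GSP1, yeast Ran itself, was not called at 14.1% (-0.04, adjusted p = 0.682). YJR074W, described as stimulating nucleotide release from Gsp1p, was deeper at 9.97% (-0.54, adjusted p = 0.00366), and so was the nucleoporin YLR335W at 11.2% (-0.37, adjusted p = 0.00203). In all 10 pore genes were listed, 8 of them shallower and 1 deeper, beside 21.2% and 25.0% of all features. Among these pore genes 6 were also in the import group. Only 16 of 47 import genes and 10 of 43 pore genes tested in total RNA were listed, so these values describe the selected members. The import members had a median level of 2039 per kb in total RNA, in a class where 27.6% of features were shallower.

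The coat of COPI vesicles, which return proteins from the Golgi to the endoplasmic reticulum, was uniform. All 7 genes of its subunits were listed and all 7 were shallower, with 17.1% to 19.7% left and relative changes of 0.24 to 0.44. Of all features 21.2% were shallower. COP1 (alpha subunit) stood at 41979 and 48237 in DMSO and 7379 and 9580 in auxin, and SEC28 (epsilon subunit) at 5540 and 5938 in DMSO and 888 and 1077 in auxin. These genes, singled out after their values were seen, differ widely in level yet kept similar shares, 18.8% and 17.1% (edgeR adjusted p = 0.0012 and 0.0119). USE1, a SNARE protein on which such vesicles fuse, was deeper at 8.70% left (-0.73, adjusted p = 0.00101).

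Listed chaperone genes and translation factors were more often shallower than deeper, beside 21.2% shallower and 25.0% deeper of all features. Of 12 listed genes in the list driven by the heat shock factor Hsf1, most but not all of them chaperones, 8 were shallower and 0 deeper. They ran from SSA2, an Hsp70 chaperone, at 15.2% left to UBI4, the polyubiquitin gene, at 21.1%. Together they took 5.15% and 4.92% of the listed counts in DMSO and 5.90% and 5.88% in auxin. Of 13 listed genes of de novo folding, which share HSP60, HSP82 and HSC82 with the Hsf1 genes, 8 were shallower and 0 deeper. Their median level was 6243 per kb in total RNA, in a class where 36.1% of features were shallower. All 72 features described with chaperones had 25 shallower and 9 deeper. CCT4, a subunit of the chaperonin TRiC, was shallower (18.6% left, 0.37, edgeR adjusted p = 0.00272), whereas CCT6, another subunit of the same ring, was not called (14.2% left, -0.03, adjusted p = 0.736). Of 18 listed translation factors 10 were shallower and 2 deeper. TEF1, elongation factor 1 alpha, kept 20.6% (0.51, adjusted p = 0.000786), and CAM1, a part of its nucleotide exchange factor, 10.1% (-0.52, adjusted p = 0.00178). The 136 features annotated with translation as a whole had 26 deeper and 25 shallower. Among 126 listed cytosolic ribosomal protein genes 26 were deeper and 18 shallower, shares close to or below those of the whole table, and these genes made up 5.18% and 5.33% of listed counts in DMSO and 5.40% and 5.27% in auxin.

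Metabolic genes went both ways within a pathway. Among 12 listed genes of glycolysis and fermentation 5 were deeper and 3 shallower, beside 25.0% and 21.2% of all features. ENO1, an enolase, went from 17158 and 23426 to 1630 and 1768 (8.37% left, -0.77, edgeR adjusted p = 0.000995), and HXK2, the main hexokinase on glucose, from 60795 and 69085 to 12407 and 13980 (20.3% left, 0.50, adjusted p = 0.000761). Both have paralogs. Among 10 listed genes of ergosterol synthesis 3 were deeper and 4 shallower: ERG6, a sterol methyltransferase, kept 8.18% (-0.83, adjusted p = 0.000162) and ERG20, farnesyl pyrophosphate synthase, 19.6% (0.44, adjusted p = 0.00119). In the synthesis of guanine nucleotides YMR217W, described as GMP synthase, kept 20.2% (0.48, adjusted p = 0.000969), near IMD2. Among 9 listed general stress genes 4 were deeper and 0 shallower, but here the auxin libraries disagreed, with a median member at 13.9% in replicate 1, above that library's median, and at 11.7% in replicate 2, below it. GPD1, the glycerol-3-phosphate dehydrogenase gene whose promoter name the OsTIR1 construct carries, was the deepest of them, from 10710 and 12404 to 1052 and 1075 (9.20% left, -0.64, adjusted p = 0.00115), and overlaps another feature.

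Further gene lists lay on one side or on both, beside 25.0% deeper and 21.2% shallower of all features. Of 19 listed proteasome genes 11 were shallower and 1 deeper, from PRE3 at 11.9% left to PUP3 at 20.5%, both of them subunits of the core particle. Ribosome biogenesis (13 genes, 8 shallower, 0 deeper), transfer RNA synthetases (9 genes, 7 and 0) and mitochondrial ribosomal proteins (17 genes, 7 and 0) had more shallower than deeper members too, with medians of 16.7%, 16.6% and 16.2% left. Wider groupings were less one-sided for 2 of these themes. The annotation term ribosome biogenesis (26 features) had 10 shallower and 7 deeper, and all 20 features described as transfer RNA synthetases had 7 and 2. The 32 described mitochondrial ribosomal proteins had 15 and 1. For the proteasome, all 37 features described as its subunits had 15 and 4, and the narrower term proteasome complex (12 features) had 4 and 2. In the list of ribosome biogenesis the upper end was NSR1, a nucleolar protein that overlaps another feature, at 20.4%. For the list of synthetases it was YHR020W, described as prolyl-tRNA synthetase, at 19.6%, and for that of mitochondrial ribosomal proteins MRPL36 at 18.7%. Of 14 listed genes of G1 and S phase 7 were deeper and 1 shallower, against 25.0% and 21.2% of all features, from GAS1, a wall glucanosyltransferase, at 9.36% to OCH1, a mannosyltransferase, at 17.5%, while the term for the G1/S transition (16 features) had 5 deeper and 5 shallower. Sequence-specific activators (20 genes) had 8 deeper and 3 shallower, between GAL4 and SKN7, a regulator of the oxidative stress response, at 17%. Of 11 genes of the phosphate regulon 5 were deeper and 2 shallower, from PHO84, the phosphate transporter, at 11.7% to PHO8, the vacuolar alkaline phosphatase, at 18.5%. The 8 listed small nucleolar RNAs ran from snR10 at 6.69% to SNR76 at 16.5%, with 3 deeper and 0 shallower. Their median was 11.6% in auxin replicate 1 and 9.66% in auxin replicate 2. The total RNA data held 80 small nucleolar RNAs, 44 ribosome biogenesis genes, 20 synthetases and 40 mitochondrial ribosomal proteins by the same lists. Values given here for these 4 lists thus describe the selected members. The lists of hexose transport, of the mitochondrial genome and of RNA polymerase III transcripts, matched mostly by symbol, had 0, 0 and 0 members in the table.

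**Figure D5:**
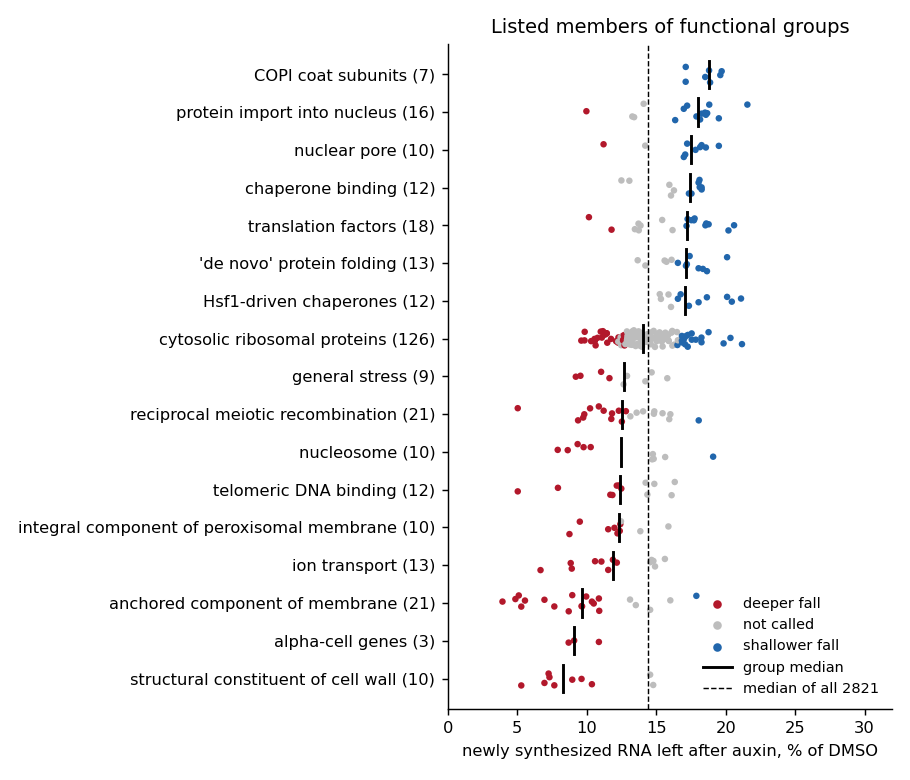
Newly synthesized RNA left after auxin, as a percentage of the DMSO mean, for each listed member of 17 groups (number of members in brackets), coloured by call, with a black bar at the group median and a dashed line at the median of all 2821 features (14.4%). COPI subunits and import genes lie right of the line with medians of 18.8% and 18.0%, and wall constituents left of it with a median of 8.30%, while ribosomal protein genes straddle it.

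Position along the chromosome bore little relation to the fall. The medians of the 16 chromosomes ran from -0.06 to 0.03. Pairs of adjacent listed genes transcribed away from each other, 352 in all, had relative changes that correlated weakly (Pearson r = 0.15), and r was 0.02 for 327 pairs facing each other and 0.02 for 638 pairs in tandem. The median difference within a pair was 0.23, 0.27 and 0.30. These are descriptions over pairs that share libraries. The deepest divergent pair, found after the values were seen, was that of ARR2 and ARR3 on chromosome XVI, which reduce arsenate and export arsenite. ARR2 went from 420 and 373 to 28.9 and 30.7 and ARR3 from 1827 and 1775 to 125 and 141, with 7.53% and 7.38% left and relative changes of -0.94 and -0.97 across a gap of 250 bases. HSP150 and CIS3, 574 bases apart on chromosome X and facing each other, matched as closely (-0.98 and -0.995). In contrast YLR108C, of unknown function, went from 36540 and 40952 to 2322 and 2622 (6.38% left), and its divergent neighbour AHP1, a thioredoxin peroxidase, from 4125 and 4230 to 415 and 456 (10.4% left), relative changes of -1.18 and -0.47.

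Total RNA, sequenced as separate libraries, put these classes in the same order. Features that were deeper in newly synthesized RNA had a median total RNA log2 fold change of -2.51, those not called -2.08 and those shallower -1.71, with the authors' scaling. The total RNA change itself went with level, with medians of -2.44 in the lowest level class and -0.85 in the highest. Deeper features had a median level of 529 per kb and shallower ones 1456. Whether level accounts for the shared order was not tested. Spearman's rho between both measures was 0.43 across 2820 features, which are not independent replicates and whose RNA came from the same kind of extract. In total RNA the log2 fold change of GAL4 was -3.74 and that of YLR108C -3.82, against -0.23 for COP1 and -0.06 for TMA19. Single genes departed from this order: CWP2 (-1.71) and CCW14 (-1.28), deeper in newly synthesized RNA, fell less in total RNA than the median feature not called.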

How the data were processed

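RNA-seq of newly synthesized RNA was analysed in 2 DMSO and 2 auxin libraries, with the 4 total RNA libraries used for level classes and a second measure. Libraries were stranded and depleted of ribosomal RNA, per the labels' protocols. Base calls were made with bcl2fastq 2.17.1.14 and the genome build was sacCer3, per the submitters' processing notes. No aligner or counting tool is named in those sources. The authors deposited raw read counts per feature and a normalized signal, which equals the raw count over a size factor for the library (0.613 and 0.657 in DMSO, 1.59 and 1.56 in auxin), also per kb of length. A deposited log2 fold change and p-values of the authors stand beside them, per the file headers, with no test named, and served only to describe the selection.

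Where the mean count over the 4 libraries reached 10, features were fitted with edgeR 4.0.16 (R 4.3.3) by its quasi-likelihood F test with treatment as sole term, first with the authors' size factors and then with TMM scaling over the listed features. P-values were adjusted by Benjamini-Hochberg over all 2821. The common biological coefficient of variation was 5.06%, and simulated counts were used to test the script. p-values measure the spread between these samples alone. DESeq2 1.42.0, other scalings and filters, a replicate block and leaving out each library were alternatives. Named genes were the 10 deepest and 10 shallowest with a symbol, an adjusted p below 0.05, at least 100 counts on average, no overlap of the groups and none with another listed feature. The rule also took in SRB4 and RGR1, the deepest and shallowest member of each list of 3 or more, the 5 highest per kb, the 3 longest and 3 shortest coding features and the 3 with the highest of the authors' p-values. Other genes named were picked after their values were seen. Promoters were not used here, for want of a sequence reference. The members and gene lists were chosen with earlier results of these data known, and groups from the deposited annotation (413 terms of 10 to 300 listed features) after the values were seen.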

Additional observations from a re-analysis of the deposited data

How the results depend on the processing

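The split into deeper and shallower falls rests on scaling over the listed features. With TMM in place of the authors' size factors, 705 features were lower, 599 were higher and the median log2 fold change was -0.0094, since that scaling removes the shared fall. With the authors' factors and the median set to 0, 111 features were deeper and 0 shallower (edgeR; 312 and 30 at an unadjusted p below 0.05). Leaving out 1 library at a time gave 444 to 875 deeper and 241 to 819 shallower features, a median of -2.96 to -2.65, a level difference of 0.24 to 0.28 and a length difference of -0.06 to 0.15. The length difference reversed to -0.059 without auxin replicate 2 and was 0.16 within level classes. The level difference was 0.22 with 3 classes in place of 5, 0.34 within length classes and 0.33 with classes from newly synthesized RNA. Without DMSO replicate 2 the median of 4 amino acid permease genes turned from -0.07 to 0.044, and it was -0.17 without DMSO replicate 1. The cause of these shifts was not tested, other than where the scaling sets them.

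The labels' replicate numbers were not shown to pair the samples, since deviations of same-numbered libraries correlated at 0.05. With the replicate block 709 features were deeper and 575 shallower, with a median of -2.80.

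With 2 libraries per group no permutation test can go below p = 0.333. The smallest raw count of a listed feature in any library was 13, so single values rest on few reads only at the low end.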

Other observations

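Features of unknown function, by the deposited descriptions, numbered 299, of which 99 were deeper and 38 shallower, with a median of 13.4% left. Described mitochondrial ribosomal proteins numbered 32, of which 15 were shallower and 1 deeper (median 16.3% left). The 141 described transcription factors lay at the bulk (median 14.5% left, 41 deeper, 26 shallower). Beside these counts stand 25.0% deeper and 21.2% shallower of all features. The 3 features that entered the table with the highest of the authors' p-values, YGR127W, YLR039C and YGL041W-A, had deposited log2 fold changes of -2.57, -2.61 and -2.54 in the authors' deposited table, while the shallowest listed fold change was -2.20.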
